A study of Mus musculus with 6 samples.

Results

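Long-addition joins are rearranged immunoglobulin heavy-chain (Igh) genes in which at least 18 bases lie between the aligned V, D and J genes. They were selected from all 6 VDJ-seq libraries as sequences with a D call whose NP1 and NP2 lengths sum to 18 or more. NP1 is the run of bases between V and D and NP2 the run between D and J. The rule found 4089 long joins among 216021 sequences with a D call and 228609 sequences in all. They were set against 208798 short joins with 1 to 17 added bases, while 3134 joins had none and 12588 sequences had no D call.

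The DNA came from the spleens of C57BL/6 mice, 12 weeks old, and was genomic DNA of their B cells. The labels name no transgene or treatment. The cells had been enriched by magnetic depletion of other cells. A series of 4 libraries used 500 ng, 1 µg, 2.5 µg or 5 µg of DNA, and a pair named Q5_vent and Q5_Q5 differed in DNA polymerases. Neither the DNA amount of the pair nor whether libraries came from separate mice is given by the labels. Each library was the only one of its group, so no p-value was computed. Values given in library order below run 500 ng, 1 µg, 2.5 µg, 5 µg, Q5_vent and Q5_Q5. Long joins numbered 151, 322, 945, 2014, 382 and 275 in library order. The 5 µg library therefore holds the largest number of long joins and weighs most in values combined over libraries.

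Igh genes are assembled on chromosome 12 from separate V, D and J segments by the RAG recombinase, which cuts at signals made of a heptamer, a spacer and a nonamer beside each segment. Hairpin opening can leave short palindromic P nucleotides, nucleases trim the ends, and terminal deoxynucleotidyl transferase (TdT) adds untemplated N nucleotides rich in G and C. D joins J first and V joins the product. The junction encodes the third complementarity-determining region (CDR3), the most variable part of the antigen-binding site. In the RefSeq annotation of GRCm38.p6 the D segments lie between the V genes and the J segments, with Ighd1-1 at chr12:113482170-113482192 on the V side and Ighd4-1, also called DQ52, at chr12:113430528-113430538 nearest to J. The J segments follow in the order Ighj1 (chr12:113429781-113429833), Ighj2 (chr12:113429468-113429515), Ighj3 (chr12:113429085-113429132) and Ighj4 (chr12:113428514-113428567).

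The longest join of each library with at least 12 aligned D bases is shown first, to make the junctions visible. Each line gives the last 12 bases of V, the added bases in capitals, the aligned D, and the first 12 bases of J, 5′ to 3′.
500 ng, IGHV1-81, IGHD2-1, IGHJ3: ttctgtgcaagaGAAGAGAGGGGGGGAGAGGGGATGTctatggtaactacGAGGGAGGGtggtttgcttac
1 µg, IGHV1-13, IGHD3-2, IGHJ4: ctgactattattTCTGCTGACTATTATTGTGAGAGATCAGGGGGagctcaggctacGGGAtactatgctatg
2.5 µg, IGHV5-16, IGHD1-1, IGHJ4: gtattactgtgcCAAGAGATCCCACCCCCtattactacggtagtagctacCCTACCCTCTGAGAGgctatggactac
5 µg, IGHV15-2, IGHD1-1, IGHJ4: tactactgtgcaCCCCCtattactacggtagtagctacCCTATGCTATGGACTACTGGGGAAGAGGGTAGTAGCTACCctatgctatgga
Q5_vent, IGHV1-50, IGHD1-1, IGHJ4: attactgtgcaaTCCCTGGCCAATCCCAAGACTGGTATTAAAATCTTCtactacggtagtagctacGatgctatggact
Q5_Q5, IGHV5-2, IGHD2-4, IGHJ2: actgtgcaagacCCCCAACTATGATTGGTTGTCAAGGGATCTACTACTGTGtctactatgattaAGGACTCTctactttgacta

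Their sums were 34, 36, 32, 45, 37 and 47 added bases in that order, and none of the 6 was in frame. The Q5_Q5 join repeats a stretch of its own D gene inside NP1. The 5 µg join repeats a stretch of its own D gene, IGHD1-1, inside NP2. That NP2 also holds the same 12 bases that are printed after it as the start of J.

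At the threshold itself the classes run into each other: 1259 joins had exactly 18 added bases and 1912 had exactly 17. Joins on either side are shown from the 5 µg library, chosen by read support, first 3 with 18 added bases and then 3 with 17.
IGHV1-18, IGHD2-5, IGHJ1: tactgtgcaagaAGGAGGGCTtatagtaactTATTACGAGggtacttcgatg
IGHV1-53, IGHD1-1, IGHJ1: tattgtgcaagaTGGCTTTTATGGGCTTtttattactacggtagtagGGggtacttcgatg
IGHV1-76, IGHD2-1, IGHJ3: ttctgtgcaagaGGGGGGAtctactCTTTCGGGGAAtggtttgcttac
IGHV1-74, IGHD2-4, IGHJ3: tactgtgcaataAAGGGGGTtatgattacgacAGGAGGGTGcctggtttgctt
IGHV3-6, IGHD2-4, IGHJ3: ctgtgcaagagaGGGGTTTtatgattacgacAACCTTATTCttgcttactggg
IGHV15-2, IGHD1-1, IGHJ1: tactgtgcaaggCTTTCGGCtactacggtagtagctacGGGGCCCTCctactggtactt

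Long joins made up a like share of every library. In library order the share was 1.84% (95% Wilson interval 1.57 to 2.15), 2.00% (1.79 to 2.23), 1.78% (1.67 to 1.90), 1.90% (1.82 to 1.98), 2.07% (1.87 to 2.28) and 1.94% (1.72 to 2.18). The ratio of 5 µg to 500 ng was 1.03 (0.877 to 1.22) and that of Q5_Q5 to Q5_vent 0.937 (0.803 to 1.09), so neither pair differed beyond counting error. These intervals cover counting error only, as do all intervals below.

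**Figure D1:**
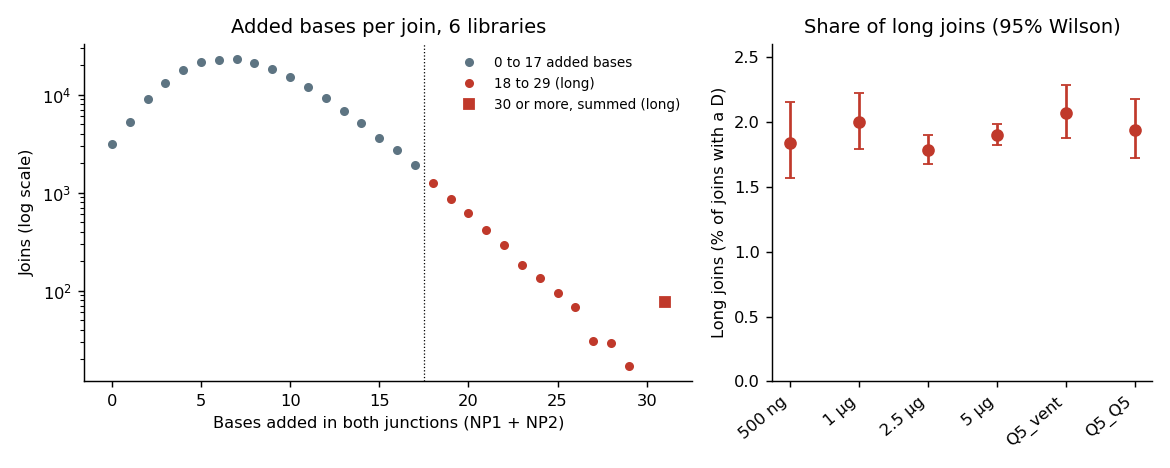
The left panel plots the number of joins (log scale) against the bases added in both junctions over the 6 libraries, with the 77 joins of 30 or more bases as 1 square. The right panel plots the share of long joins in each library with its 95% Wilson interval, between 1.78% and 2.07%.

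The number of joins fell by steps from 1259 at 18 added bases to 17 at 29, and 77 joins had 30 or more, up to 83. The median long join had 19 added bases. NP1 held a mean of 11.4 bases and NP2 9.08 in long joins, against 4.25 and 3.22 in short joins. NP1 was at least 2 times as long as NP2 in 36.9% of long joins and the reverse held in 19.7%. Both junctions held added bases in most of them: NP1 was empty in 32 long joins and NP2 in 65. Reads per sequence, a number inferred from the sequence names, averaged 10.7 ± 2.597 in long and 10.9 ± 2.45 in short joins (SD, n = 6 libraries).

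A second D segment was looked for inside the added bases. Direct D-to-D joining is rare in textbook descriptions, since the signals on both sides of a D segment have spacers of the same length. The germline D sequences searched are the consensus of the deposited alignments for each D allele, because no genome was used here, and the D genes that recur below are these.
IGHD1-1, of the DFL16 family: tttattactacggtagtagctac
IGHD2-3, of the DSP2 family: tctatgatggttactac
IGHD2-4, of the DSP2 family: tctactatgattacgac
IGHD4-1, DQ52: ctaactgggac

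An exact forward match of at least 8 bases with a germline D, in addition to the called D, was present in 160 of 4089 long joins, or 3.91% (95% Wilson interval 3.36 to 4.55). It was present in 140 of 208798 short joins, or 0.0671% (0.0568 to 0.0791). A second D segment lies within NP1 or NP2, so its own bases count toward the sum that defines a long join. The long and short values are therefore given as a description, without a test. They are also given per 1000 windows of 8 bases, since longer stretches offer more places for a match, but this does not remove the dependence on the rule. In library order, long joins had 4.33, 4.67, 5.28, 4.44, 4.78 and 7.79 matches per 1000 windows, and short joins 2.41, 1.61, 1.39, 1.56, 0.837 and 0.598. The long-join values range from 4.33 to 7.79 and the short-join values from 0.598 to 2.41.

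D genes read as their inverted complement matched in 71 long joins, and D genes written backwards, which have the same bases in an order that no D segment has, matched in 53. Within long joins the counts were 160 forward, 71 inverted and 53 backwards, and within short joins 140, 108 and 114. Bases of an inserted D segment can bring a join into the long class, so these counts depend on the rule as well. They are given as a description. With at least 10 matching bases the counts in long joins were 59 forward, 14 inverted and 0 of 4089 backwards, which allows a share of up to 0.0734% of long joins. The called D was itself aligned over 10 or more bases in 139 of the 160 joins with a match, and the match was longer than the called D in 7. Such joins were productive in 48.8% (41.1 to 56.4), against 61.3% (59.8 to 62.8) of the 3929 long joins without a match. They also had more added bases, with a median of 21 against 19. The productive share was 63.4% at 18 to 20 added bases and 56.9% at 21 to 29. The part of length in this difference was not tested.

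The matches lay mainly on the J side of the called D. NP2 held a forward match in 124 long joins and NP1 in 36. In NP2 the rate in long joins was 10.6 ± 2.34 forward and 0.875 ± 0.480 backwards per 1000 windows (SD, n = 6 libraries), with the forward rate above the backwards rate in each library. In NP1 it was 1.78 ± 1.28 forward and 2.35 ± 1.36 backwards.

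**Figure D2:**
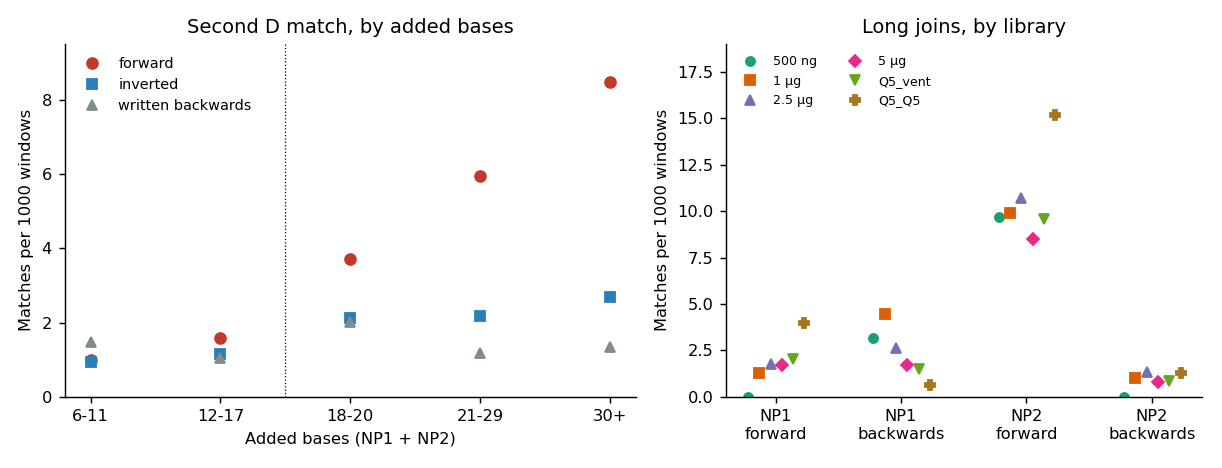
The left panel plots matches of at least 8 bases with a D gene per 1000 windows against the added bases, with forward, inverted and backwards-written D genes as separate symbols; the forward rate goes from 1.00 at 6 to 11 bases to 8.49 at 30 or more. The right panel plots forward and backwards rates of long joins for NP1 and NP2, 1 symbol per library.

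DQ52, the D segment nearest to J, was the most frequent match. It was found in NP2 of 71 long joins, in all 6 libraries, and in NP1 of 0 of 4089. The counts in NP2 were 3, 5, 18, 31, 7 and 7 in library order. The called D before it was of the DFL16 family in 41 and of the DSP2 family in 27. The match rate of DQ52 in NP2 was 6.10 ± 1.44 per 1000 windows in long and 1.34 ± 1.08 in short joins (SD, n = 6 libraries), again a description, since the DQ52 bases are part of the sum. The whole DQ52 segment was present in 11 long joins and 1 short join. An example from each of 5 libraries is shown, the capitals marking DQ52, to show the order of V, a first D, DQ52 and J. These were chosen after the matches were seen.
500 ng, IGHV8-2, IGHD1-1, IGHJ2: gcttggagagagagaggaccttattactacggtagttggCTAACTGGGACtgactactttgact
2.5 µg, IGHV10-3, IGHD2-1, IGHJ4: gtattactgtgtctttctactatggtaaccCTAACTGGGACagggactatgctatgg
5 µg, IGHV1-9, IGHD2-5, IGHJ3: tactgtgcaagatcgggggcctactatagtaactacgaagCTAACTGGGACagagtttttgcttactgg
Q5_vent, IGHV10-3, IGHD1-1, IGHJ4: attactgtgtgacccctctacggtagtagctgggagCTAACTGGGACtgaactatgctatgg
Q5_Q5, IGHV1-26, IGHD1-1, IGHJ2: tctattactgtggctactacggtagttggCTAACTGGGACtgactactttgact

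The 500 ng, 5 µg and Q5_Q5 joins were productive. Of the 71 long joins with DQ52 in NP2, 38 were.

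The order of called D and matched D was set against the order on the chromosome. In NP2 of long joins, 90 of 93 pairs had the V-side segment first, or 96.8% (95% Wilson interval 90.9 to 98.9), and in NP1 it was 12 of 16. A DQ52 match in NP2 can score only in this order, since no other D lies nearer to J. DQ52 followed DFL16 in 41 and DSP2 in 27 long joins, and such pairs make up most of the 93. The NP2 share therefore mostly restates the DQ52 count and is no test of order. In NP1 a pair with DQ52 as the called D can likewise score only in this order. There DQ52 followed a DFL16 match in 3 and a DSP2 match in 3 long joins, so the 12 of 16 is no test either. DFL16 followed by a DSP2 match occurred in NP2 18 times and DSP2 followed by a DFL16 match 2 times. The short joins with a match had the chromosomal order in 54 of 56 pairs in NP2 and 5 of 21 in NP1. In those short joins DQ52 in NP2 followed DFL16 in 28 and DSP2 in 20, so the same limit holds. The order was scored over DFL16, the DSP2 genes taken as 1 block, IGHD3-2 and DQ52, and 31 NP2 matches of long joins were not scored. IGHD3-1 was left out, although the annotation places it on the V side of IGHD1-1. A join printed next has IGHD1-1 followed by an IGHD3-1 match in NP2, which is the opposite order. Pairs within the DSP2 block were left out as well, although the annotation gives positions for some of these genes. The 90 of 93 therefore covers scored pairs only.

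Of the 8 long joins with the longest second D match, 7 are shown with that match in capitals.
5 µg, IGHV1-49, IGHD1-1, IGHJ2: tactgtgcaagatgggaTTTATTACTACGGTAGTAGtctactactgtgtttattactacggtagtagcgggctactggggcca
5 µg, IGHV1-63, IGHD3-1, IGHJ3: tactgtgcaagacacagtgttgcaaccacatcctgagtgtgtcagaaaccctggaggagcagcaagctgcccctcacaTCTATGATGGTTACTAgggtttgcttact
5 µg, IGHV5-16, IGHD2-3, IGHJ2: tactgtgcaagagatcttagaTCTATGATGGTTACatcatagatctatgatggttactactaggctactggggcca
5 µg, IGHV5-12-1, IGHD2-4, IGHJ4: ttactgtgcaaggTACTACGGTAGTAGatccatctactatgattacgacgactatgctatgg
5 µg, IGHV3-3, IGHD1-1, IGHJ1: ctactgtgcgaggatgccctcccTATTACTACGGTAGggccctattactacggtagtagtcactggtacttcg
2.5 µg, IGHV1-15, IGHD1-1, IGHJ2: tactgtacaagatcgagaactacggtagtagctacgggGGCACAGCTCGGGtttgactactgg
5 µg, IGHV9-3, IGHD1-1, IGHJ3: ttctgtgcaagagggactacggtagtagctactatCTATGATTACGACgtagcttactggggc

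The IGHV1-49, IGHV5-16 and IGHV3-3 joins repeat the called D gene itself, with matches of 19, 14 and 14 bases. In the IGHV1-63 join the called D was aligned over 5 bases only, cacag. With the bases that follow, these spell the heptamer letters cacagtg directly after V. The called D is therefore uncertain, and the match of 16 bases may be the only D segment of this join. The IGHV5-12-1, IGHV1-15 and IGHV9-3 joins are productive and hold D segments of different genes, with matches of 14, 13 and 13 bases.

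Called D families differed between long and short joins when all joins were used, and not when the D alignment had to be longer and unambiguous. A difference is called here when it has the same direction in all 6 libraries and the 95% interval of the value combined over libraries, with the library as stratum, excludes 0. The DSP2 family, which encodes tyrosine-rich D regions, made up 50.2% ± 4.53 of long and 44.3% ± 0.426 of short joins (SD, n = 6 libraries). In library order the long joins had 58.9%, 47.8%, 48.1%, 50.8%, 46.3% and 49.1%. The 500 ng library, with 151 long joins, is the highest and all 6 lie above every short-join value, of which the highest is 45.0%. The stratified difference was 5.42 percentage points (3.87 to 6.96). DQ52 as the called D fell to 4.35% ± 0.836 from 6.52% ± 0.123, with a stratified difference of -2.11 points (-2.74 to -1.47). These were the 2 called families of 6 tested, or 33.3%.

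When only joins with at least 10 aligned D bases and a call naming a single D gene were kept, the DSP2 difference was 0.0772 points and that of DQ52 turned to 0.802 points, neither called. That setting changes the alignment length and the ambiguity of the call together, and it keeps only near-complete copies of DQ52, which has 11 bases. A D aligned over only 5 to 7 bases, whose identity is less certain, was found in 22.7% ± 2.15 of long and 20.1% ± 0.166 of short joins, higher in 5 of 6 libraries and not called. The part of each in the D family differences was not tested.

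Among the other families, DFL16 made up 39.8% ± 3.07 of long and 42.1% ± 0.377 of short joins, and DST4 4.67% ± 0.974 and 6.14% ± 0.225. Both were lower in 5 of 6 libraries and neither was called. The minor families IGHD5 and IGHD6 were at 0.381% and 0.622% of long joins. Of the 11 D genes with at least 1% of joins, IGHD1-1 was lower in long joins in all 6 libraries, at 37.2% against 40.5%. IGHD2-4 was higher in all 6, at 16.3% against 13.3%, as were IGHD2-2, at 5.77% against 4.12%, and IGHD2-12, at 2.42% against 1.303%. The DSP2 genes did not all rise: IGHD2-3 was lower in 5 of 6, at 8.29% against 9.38%, and IGHD2-5 in 4 of 6. IGHD2-1 was higher in 5 of 6, at 8.02% against 6.87%, and IGHD2-10 in 4 of 6. IGHD3-2 and IGHD3-3 were lower in 5 of 6, and none of these uneven genes was called. IGHD2-1, IGHD2-2, IGHD2-10, IGHD2-12 and IGHD3-3 are names of the V, D and J caller that the RefSeq table used here does not hold.

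The aligned D was slightly shorter in long joins, with a mean of 11.4 ± 0.125 bases against 11.7 ± 0.0246. This length and the added bases that define the class are cut from the same sequence, so it is a description. Ends were missing a little more germline as well: 3.99 ± 0.174 J bases against 3.36 ± 0.105, and 1.13 ± 0.0783 V bases against 0.981 ± 0.0129.

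J usage differed for 3 of the 4 J genes, or 75.0% of those tested. IGHJ1, the J segment next to DQ52, was the J gene of 13.2%, 12.7%, 13.8%, 13.1%, 13.6% and 12.7% of long joins in library order. In short joins it was 18.3%, 17.8%, 19.1%, 19.1%, 17.8% and 18.3%. All long-join values lie below all short-join values, and the stratified difference was -5.54 percentage points (-6.59 to -4.49).

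IGHJ2 was higher in long joins in every library, at 35.0% ± 3.91 against 30.6% ± 1.44 (SD, n = 6 libraries), and IGHJ4, the J segment farthest from D, at 29.99% ± 2.68 against 26.2% ± 0.627. Their stratified differences were 3.14 points (1.69 to 4.59) and 2.51 points (1.11 to 3.91). The ranges of IGHJ2 over libraries overlap between the classes, and those of IGHJ4 do not. With at least 10 aligned D bases and a single D gene, IGHJ4 was not called, at 3.41 points. Sequences whose J primer tag is marked unclear were also more frequent among long joins, at 15.9% ± 2.91 against 11.9% ± 1.73. Without them the differences were 3.90 points for IGHJ2 and 4.11 points for IGHJ4, and both were still called.

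IGHJ3 had no common direction. Its share in long minus that in short joins was -6.05, -4.15, 1.52, 2.21, -7.52 and -4.45 points in library order, so it was higher in the 2.5 µg and 5 µg libraries and lower in the others. The stratified difference was -0.108 points (-1.45 to 1.23). It was -2.36 points without the 5 µg library and 0.655 without Q5_vent, and it lay between these without each of the others. Without sequences with an unclear tag, IGHJ3 was lower in all 6 libraries and called, with a stratified difference of -2.62 points.

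**Figure D3:**
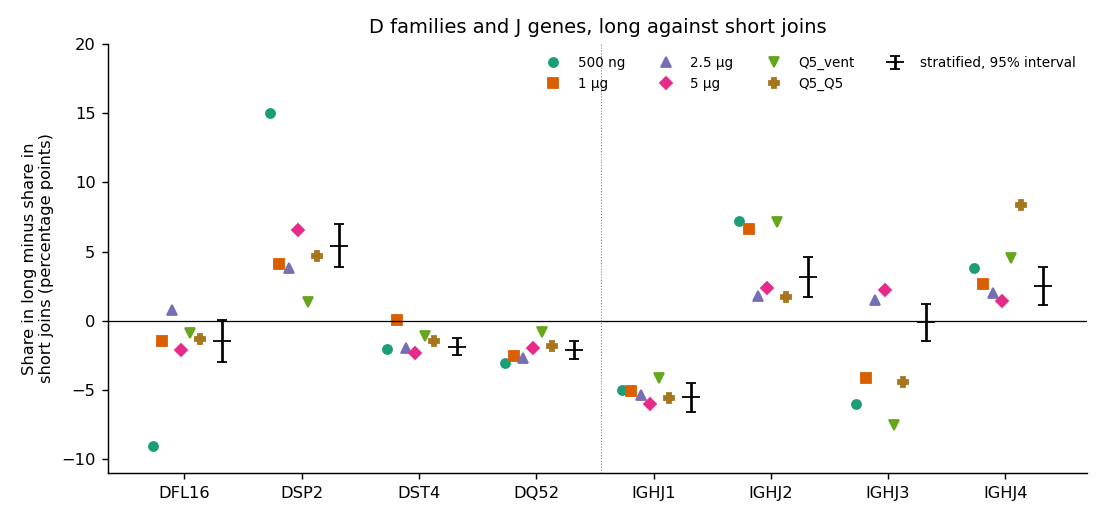
Each symbol is the share of a D family or J gene in long joins minus its share in short joins in 1 library, in percentage points, and the black bar is the stratified difference with its 95% interval. All 6 libraries lie below 0 for DQ52 and IGHJ1 and above 0 for DSP2, IGHJ2 and IGHJ4, and IGHJ3 lies on both sides.

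Of 11 V families with at least 1% of joins, 3 were called, or 27.3%. IGHV1, the large J558 family, made up 61.5% ± 2.48 of long and 57.1% ± 0.263 of short joins (SD, n = 6 libraries), with a stratified difference of 3.33 points (1.81 to 4.84). It was not called with at least 10 aligned D bases, at 1.32 points.

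The small families IGHV6 (J606) and IGHV7 (S107) were rarer among long joins. IGHV6 was at 0%, 1.24%, 0.952%, 1.39%, 0.785% and 1.45% of long joins in library order, against 2.51% to 2.89% of short joins. No long-join value reaches the short-join range, and the 0 in the 500 ng library is 0 of 151 joins, which allows a share of up to 1.99%. The stratified difference was -1.55 points (-1.89 to -1.21). IGHV7 was at 0.668% ± 0.432 of long and 1.48% ± 0.0857 of short joins, with a stratified difference of -0.793 points (-1.05 to -0.535). The families IGHV10 and IGHV14 were lower in 5 of 6 libraries and not called, with stratified differences of -0.996 and -1.17 points. That of IGHV10 was -0.656 points without the 5 µg library, and without the 2.5 µg library it was -1.31 points and called. The families IGHV2, IGHV3, IGHV4, IGHV5, IGHV8 and IGHV9 were not called either. Their stratified differences were 0.496, -0.135, 0.133, -0.270, 0.968 and 0.529 points.

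Of 68 V genes with at least 1000 joins, 6 (8.82%) were called, all lower in long joins, where the rule also asked for a ratio of shares of at least 0.32 either way on the log2 scale. None was called higher, by the same rule (0.0%). Genes with fewer joins were not tested, and most joins counted are short. A gene frequent only among long joins can therefore be missing from the 68. The IGHV8 family was higher in long joins in 5 of 6 libraries, by 0.968 points (0.208 to 1.73). Its tested genes IGHV8-2, IGHV8-8 and IGHV8-12 had ratios of 0.952, 0.868 and 0.605. IGHV6-3 had 20 long joins and a ratio of its share in long to that in short joins of 0.321 (0.207 to 0.498), the furthest from 1. IGHV7-1 had a ratio of 0.407 (0.211 to 0.784) with 9 long joins. The others were IGHV14-1 at 0.515, IGHV14-2 at 0.531, IGHV8-12 at 0.605 and IGHV13-2 at 0.641. On the high side IGHV5-9-1 had a ratio of 1.79 (1.296 to 2.47) and IGHV3-8 one of 1.65 (1.2504 to 2.18), but they were higher in 4 and 5 of 6 libraries. These 2 were named after their values were seen. Of the 51 long IGHV3-8 joins, 12 belonged to 4 junctions seen more than once, all IGHD1-1 to IGHJ1 with 21 to 24 added bases and none productive. In simulated joins with 10 genes doubled and 10 lowered to 0.5-fold the rule found 6 and 4 of them and called 1 of 48 unchanged genes, so genes that it did not call may still differ.

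The added bases of long joins were less rich in G and C. The G+C share was 62.0%, 60.9%, 60.9%, 61.4%, 60.8% and 59.2% in library order, against 66.6% to 66.9% in short joins. The ranges do not overlap, and the stratified difference was -5.80 percentage points (-6.16 to -5.44). With the first and last 2 bases of each NP left out it was -7.93 points (-8.43 to -7.44).

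The change in base composition took different forms at the V and J sides of D. In NP1, G fell to 38.4% ± 1.85 from 45.3% ± 0.0896 (SD, n = 6 libraries), while A rose to 22.5% ± 0.615 from 18.04% ± 0.102 and T to 18.4% ± 0.774 from 15.5% ± 0.116. C in NP1 was 20.7% ± 1.15 against 21.2% ± 0.0818, and this was not called. In NP2, C fell to 22.2% ± 1.67 from 25.5% ± 0.378 and A rose to 18.3% ± 0.814 from 14.3% ± 0.0578. G in NP2 was lower in 5 of 6 libraries, with a stratified difference of -1.63 points (-2.32 to -0.937), and was higher in the 500 ng library, at 43.5% against 41.0%. T in NP2 was higher in 4 of 6, and neither was called.

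**Figure D4:**
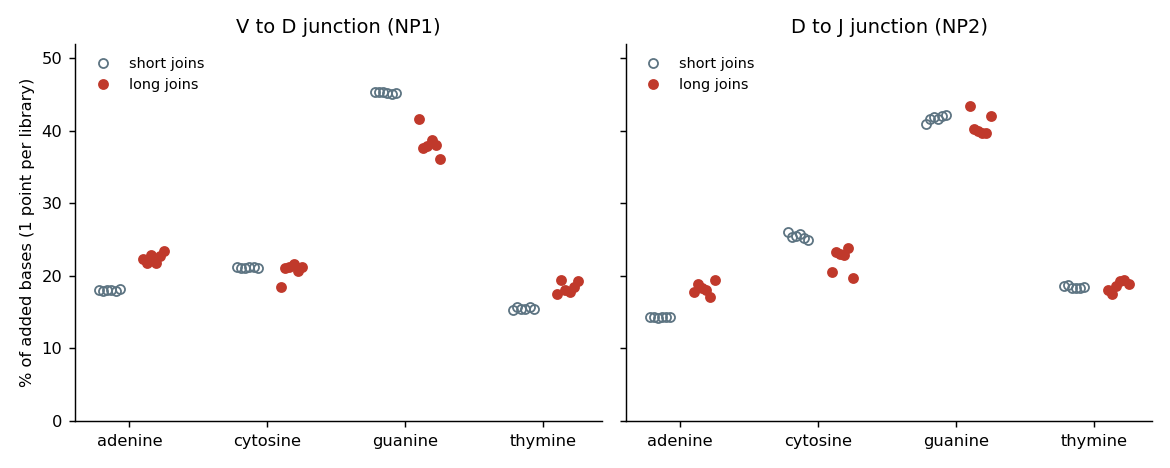
Each point is the share of a base among the added bases of 1 library, in percent, for short joins (open) and long joins (filled), with NP1 left and NP2 right. Guanine in NP1 and cytosine in NP2 are lower and adenine is higher on both sides in all 6 libraries.

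Letters that P nucleotides leave were counted at each segment end, pooled over libraries. Where the J segment was untrimmed, at least 2 palindromic bases preceded it in 37.0% (33.9 to 40.1) of 936 long joins and 24.8% (24.4 to 25.1) of 52986 short joins. At trimmed J ends the corresponding letters occurred in 2.38% and 1.80%. An NP stretch of under 2 bases cannot hold such letters, and the part of that limit in the short-join shares was not tested. At untrimmed D ends the shares were 32.4% against 21.9% on the V side and 21.3% against 15.4% on the J side. Palindromes of at least 6 bases at an untrimmed D end on the J side occurred in 4 of 1632 long and 11 of 71844 short joins. These letters are not all those of P nucleotides alone. In the long IGHV3-7 and IGHV4-1 joins from 2.5 µg the palindrome runs on into more of the inverted complement of the called D. These joins therefore also belong to the inverted D matches counted above. An example with a run of 18 bases that reads the same on both strands, in capitals, is an IGHV9-3 join to IGHJ3.
1 µg, IGHV9-3, IGHD2-3, IGHJ3: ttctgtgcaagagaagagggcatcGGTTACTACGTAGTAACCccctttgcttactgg

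Long joins were less often productive. The productive share was 58.9%, 63.0%, 60%, 61.1%, 61.3% and 59.6% in library order. In short joins it was 72.4% to 73.8%, and the ranges do not overlap. The stratified difference was -12.2 percentage points (-13.7 to -10.7). The in-frame share was 68.2% ± 2.10 in long and 77.6% ± 0.336 in short joins (SD, n = 6 libraries), a called difference.

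In-frame long joins also held more stop codons, at 10.97% ± 3.76 against 6.01% ± 0.302, with a stratified difference of 5.10 points (3.93 to 6.27). It was not called, because the 1 µg library had 6.02% in long and 6.29% in short joins. Across classes of added bases the productive share went from 74.9% at 1 to 5 bases, through 73.1%, 68.6%, 63.4% and 56.9%, to 32.5% (23.1 to 43.5) in the 77 joins with 30 or more. The stop codon share of in-frame joins went from 4.98% to 37.5% (24.2 to 53.0) over the same classes.

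**Figure D5:**
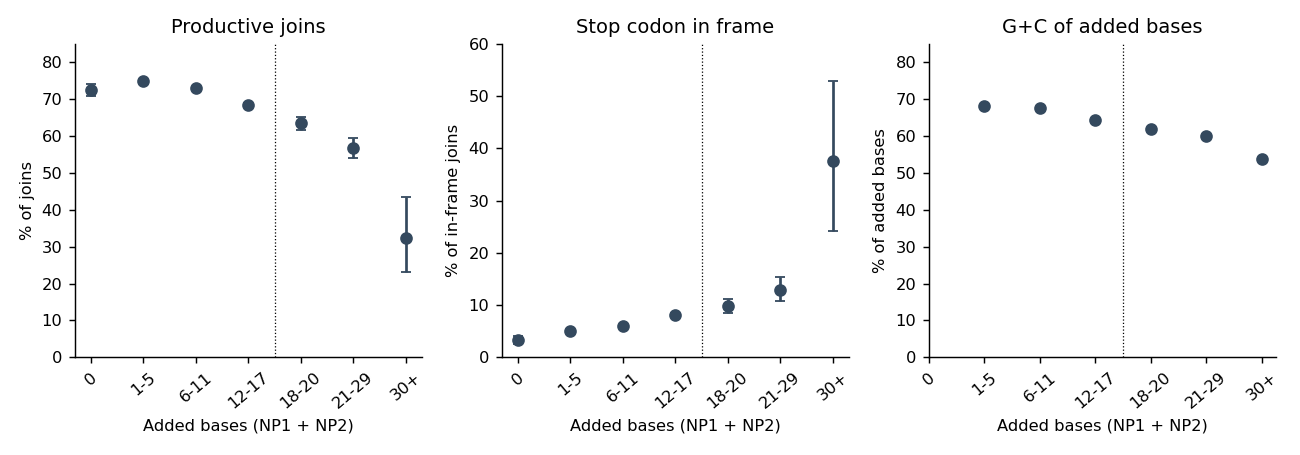
The panels plot, against the added bases, the productive share of joins, the share of in-frame joins with a stop codon and the G+C share of the added bases, in percent, with 95% Wilson intervals for the first 2. The dotted line marks the threshold of 18 bases; the productive share is 74.9% at 1 to 5 bases and 32.5% at 30 or more.

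Among productive joins the CDR3 of long joins was 49.8 ± 0.370 bases long against 38.3 ± 0.0691, which follows from the rule. The residues are therefore given per CDR3 and as a description. Glycine numbered 2.15 ± 0.0820 per CDR3 in long and 1.23 ± 0.00386 in short joins (SD, n = 6 libraries). Tyrosine, the most frequent of the 4 residues given, numbered 2.84 ± 0.0557 against 2.72 ± 0.00874. Serine was at 1.01 ± 0.0287 against 0.887 ± 0.00809, and aspartate at 1.58 ± 0.0601 against 1.37 ± 0.00589. Each of the 4 was more numerous in long joins in every library, with glycine differing most. As a share of residues, glycine made up 12.9% of the longer CDR3s against 9.67%, while tyrosine made up 17.1% against 21.4%, over a larger total. The 4 residues given are those whose share was called. Proline, arginine and cysteine were counted as well and not called. Their shares were 3.04% against 2.04%, 9.66% against 8.99% and 0.186% against 0.147%.

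The share of joins with at least 1 V mismatch was 9.76% ± 2.78 in long and 7.60% ± 1.68 in short joins (SD, n = 6 libraries). It was higher in 5 of 6 libraries, with 7.33% against 7.67% in Q5_vent, and was not called.

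Long joins seldom recurred. A clone was taken as sequences that share V gene, J gene and CDR3 bases. Such a clone was found in at least 2 libraries for 24 of 4030 long clones, or 0.596% (0.401 to 0.885), and for 0.727% (0.691 to 0.765) of 204118 short clones. Clones without added bases did so in 4.13% (3.42 to 4.98). The difference between long and short clones, -0.131 points (-0.372 to 0.109), is within counting error. Of 4032 distinct long junctions 47 were seen more than once, and 23 of these in at least 2 libraries. The most frequent was an IGHV3-8 to IGHJ1 junction with 4 sequences in 3 libraries. No molecular identifier was shared between libraries for any of the 23.

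The 77 joins with 30 or more added bases held stretches that are not random in appearance, described here after they were seen. An untrimmed D preceded by NP1 ending in TGTG or AGTG occurred in 4 of 77 such joins, 2 of 4012 with 18 to 29 bases and 13 of 208798 short joins. These are the letters that end a recombination signal heptamer on the V side of D. An untrimmed J preceded by NP2 ending in TGTG occurred in 4 of 77, 0 of 4012 and 5 of 208798. In 3 of these the same 29 bases, in capitals, stood directly before IGHJ4 in joins with different V genes, and no other join with a D call held them.
2.5 µg, IGHV9-1, IGHJ4: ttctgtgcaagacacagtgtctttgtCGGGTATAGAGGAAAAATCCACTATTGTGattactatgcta
5 µg, IGHV1-42, IGHJ4: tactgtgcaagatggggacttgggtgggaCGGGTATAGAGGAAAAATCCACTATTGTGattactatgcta
5 µg, IGHV1-7, IGHJ4: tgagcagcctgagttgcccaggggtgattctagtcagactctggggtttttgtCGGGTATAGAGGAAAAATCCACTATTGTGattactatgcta

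A stretch of 37 bases, in capitals below, was shared by 4 joins with 4 different V genes in 3 libraries, all to IGHJ4 and none productive. No other join with a D call held it. In 2 of them it runs on to the heptamer cacagtg followed by the start of DQ52.
2.5 µg, IGHV1-69, IGHJ4: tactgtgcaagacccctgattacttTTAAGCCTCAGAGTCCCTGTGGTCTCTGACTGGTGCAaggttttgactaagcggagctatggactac
2.5 µg, IGHV10-1, IGHJ4: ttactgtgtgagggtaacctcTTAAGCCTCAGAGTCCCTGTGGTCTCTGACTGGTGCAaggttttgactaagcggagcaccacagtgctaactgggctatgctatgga
5 µg, IGHV1-76, IGHJ4: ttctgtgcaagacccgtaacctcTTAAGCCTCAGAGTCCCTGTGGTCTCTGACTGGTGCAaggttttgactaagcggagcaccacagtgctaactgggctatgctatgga
Q5_vent, IGHV2-6-5, IGHJ4: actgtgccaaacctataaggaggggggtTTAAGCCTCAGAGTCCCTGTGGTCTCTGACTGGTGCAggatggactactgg

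In 3 of these 4 joins the D was called as IGHD6-2 from 7 bases that lie inside the shared stretch, and in the other the called D had 7 bases as well. A D called over so few bases is uncertain, as is that of the 3 joins above, aligned over 5 or 6 bases. Without the 77 joins of 30 or more bases the productive share of long joins minus that of short joins was -11.7 points (-13.2 to -10.2).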

How the data were processed

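The authors deposited a table per library with 1 row per deduplicated sequence. Per the file headers it gives V, D and J calls, positions and lengths in bases, frame, stop and productive flags, and the sequence, all used as deposited. Bowtie2 2.3.2, Trim Galore 0.4.4 and the build mm10 appear in the submitters' processing notes. The version of the V, D and J caller was not given in the sources used here. Because NP1 and NP2 are what the alignment left between segments, a short or missed D alignment lengthens them.

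Genes are the first call, with alleles merged. Added bases were cut from the deposited sequence at the deposited positions. Differences of long minus short joins were taken within each library and combined with the library as stratum, with 95% normal intervals over joins, also for aligned D length. V gene ratios are Mantel-Haenszel ratios. Mean ± SD is over 6 libraries. The V gene rule was tested on simulated data.

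Members, lists and tests were chosen with earlier results of these data known. Named were every J gene, D and V families and D genes with at least 1% of joins, up to 10 called V genes per direction, and joins by length, threshold or match; others are said to be chosen after their values were seen. Library totals ranged from 8704 to 112320 sequences. Alternatives were other thresholds, D alignment, primer tags, clones, frames and left-out libraries. Computation was in pandas 2.3.3 and NumPy 2.4.6 under Python 3.11.15, with plots from matplotlib 3.10.9. A sequence feature of some long joins, and a join that holds it, are not reported here.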

Additional observations from a re-analysis of the deposited data

Results flagged for a closer look

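The difference between long and short joins was compared between 5 µg and 500 ng and between Q5_Q5 and Q5_vent in 40 comparisons in all. In 2 of them the 95% interval excluded 0, and counting error alone gives 2.0 on average. The long-minus-short difference of the DSP2 family was 6.53 percentage points in the 5 µg library and 15.04 in the 500 ng library. These differed by -8.51 points (-16.8 to -0.261), with 151 long joins at 500 ng. That of IGHJ3 was 2.21 and -6.05 points in the same libraries, which differed by 8.27 points (1.75 to 14.8). A library that differs in DNA amount differs here in its number of joins as well, and each group has 1 library.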

How the results depend on the processing

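No paired analysis was possible because, between groups, there is 1 library each; long and short joins were compared within each library throughout. The productive share and G+C share kept direction and call under every alternative run for them. Leaving out 1 library at a time gave -12.5 to -11.9 points for the productive share and -6.09 to -5.67 for G+C. The second D rate, which the rule partly fixes, was 3.48 per 1000 windows higher in long joins and 3.21 to 4.06 without 1 library. It was 1.07 for inverted and 0.466 for backwards-written D genes.

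Called D families were 2 in all joins and 0 with at least 10 aligned D bases and a single D gene, where DQ52 turned to 0.802 points. They were 4 at a threshold of 15 bases, 1 at 21 and 0 among out-of-frame joins, and 2 to 3 without 1 library. Called J genes were 1 among out-of-frame joins and 3 without any 1 library. Called V families were 5 at 15 bases, 5 among productive and 1 among out-of-frame joins, and 3 to 5 without 1 library. Without Q5_Q5 they were 5. Called V genes were 1 with at least 10 aligned D bases, 10 at 15 bases, 2 at 21, 10 among productive and 3 among out-of-frame joins. They were 5 to 10 without 1 library, with 10 each without 500 ng, 1 µg and 2.5 µg, where fewer libraries had to share a direction. Out-of-frame and stricter sets hold fewer joins.

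Stop codons were called at 15 bases (3.79 points), at 21 bases (8.04) and without the 1 µg library (5.55; 4.74 to 5.55 over left-out libraries). The V mismatch share was called at 15 bases (1.31), at 21 bases (2.80), without unclear tags (1.36) and without Q5_vent (1.74; 1.39 to 1.74 over left-out libraries), and turned to -0.372 among productive joins. Aligned D length was not called with at least 10 aligned D bases (-0.101 bases) or out of frame (-0.400), and ran from -0.352 to -0.316 over left-out libraries. Recurrence was -0.267 points and called without Q5_vent (-0.267 to -0.0139 over left-out libraries) and 0.0549 out of frame. The log2 ratio of long-join shares, none called, turned to 0.0137, 0.0139 and 0.152 for Q5_Q5 over Q5_vent at 15 bases, 21 bases and out of frame, and to -0.000871 for 5 µg over 500 ng without unclear tags. The cause of these changes was not tested. Leaving out joins of 30 or more bases, and D genes written backwards, were chosen after seeing the data.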

Other observations

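DQ52 matches in NP2 of long joins were unevenly spread over J genes. They were found in 1 of 541 long joins to IGHJ1, or 0.185% (95% Wilson interval 0.0326 to 1.04), in 25 of 1340 to IGHJ2, or 1.87% (1.27 to 2.74), in 23 of 1039 to IGHJ3, or 2.21% (1.48 to 3.30), and in 22 of 1169 to IGHJ4, or 1.88% (1.246 to 2.83). The intervals of IGHJ1 and each other J gene do not overlap. Short joins had 1 such match with IGHJ1, 16 with IGHJ2, 21 with IGHJ3 and 10 with IGHJ4. By the called D, 41 of 1658 long DFL16 joins, or 2.47% (1.83 to 3.34), and 27 of 2034 long DSP2 joins, or 1.33% (0.914 to 1.92), held DQ52 in NP2, and 0 of 178 joins with DQ52 as the called D did, which allows a share of up to 1.69%. This split was looked at after the matches had been counted.

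Of the other long joins with an end palindrome, the IGHV3-7 join from 2.5 µg has 70 added bases. Its NP2 opens with the inverted complement of all 17 bases of germline IGHD2-1. The capitals mark only the part that mirrors the aligned D end, together with that end. The palindrome is thus part of a longer inverted D match.
2.5 µg, IGHV3-7, IGHD2-1, IGHJ2: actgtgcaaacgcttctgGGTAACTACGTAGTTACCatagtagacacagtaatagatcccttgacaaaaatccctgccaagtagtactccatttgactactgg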
